A study of Homo sapiens with 6 samples.

Results

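The clustered histone genes encode the linker histones H1-1 to H1-6 and the core histones H2A, H2B, H3 and H4 that are made for DNA replication. They were taken as every gene whose single annotated symbol is H1-1 to H1-6 or begins with H2AC, H2BC, H3C or H4C and a digit. By that rule 58 of the 18417 genes measured on the arrays were members: 6 of H1, 14 of H2A, 17 of H2B, 8 of H3 and 13 of H4. Each was read by 1 probe (a probe set of the array that stands for a transcript) that carries its symbol alone. Some members were also read by probes with several symbols. RefSeq lists 83 genes under these symbols, 70 coding and 13 pseudogenes. The members were 57 of the coding genes and the pseudogene H2BC19P, and the other 13 coding genes were read only by probes that carry several symbols.

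The samples were H441 cells, an established human lung adenocarcinoma line, 48 h after lipid transfection with a pool of siRNAs against the transcription factor gene ETS2 or with a scrambled control siRNA. Each group held 3 arrays, which the labels number 1 to 3 and which were taken here as separate transfections. The p-values measure the spread between these arrays of 1 line. Total RNA was labelled as biotinylated cRNA, and how far that labelling reads transcripts without a poly(A) tail is not given in the sources used here. Levels are deposited RMA values on the log2 scale, and each difference is the ETS2 siRNA mean minus the control mean on that scale. RMA levels ran from 3.21 to 14.51 over all probes, and array medians over the measured genes from 8.07 to 8.10.

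A nucleosome holds DNA around a core of H2A, H2B, H3 and H4, and H1 binds the linker DNA at its entry and exit. Most genes of these clusters are transcribed in S phase, under the coactivator NPAT, and their short mRNAs end in a stem-loop bound by SLBP in place of a poly(A) tail. A few also give polyadenylated transcripts, and H1-6, H2AC1 and H2BC1 are known as testis genes. The H2A and H2B genes often lie side by side and are transcribed away from each other from 1 shared promoter stretch.

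The promoter elements of these genes are shown here for H2BC11, the member with the largest positive difference, and for H2BC14, H2BC21, H2BC4 and H1-2, which had the largest negative differences. Each line gives the 140 bases that precede the start of the gene in RefSeq (GRCh38.p14), read on the strand of the gene. Capitals mark the octamer ATTTGCAT, a known element of H2B promoters bound by OCT1, the CCAAT box, the TATA box as TATAAA and the H1 box AAACACA, on either strand. The stretches lie at chr6:27132796-27132935 (minus strand) for H2BC11, chr6:27814882-27815021 (plus) for H2BC14, chr1:149886683-149886822 (minus) for H2BC21, chr6:26123927-26124066 (minus) for H2BC4 and chr6:26056471-26056610 (minus) for H1-2.
H2BC11: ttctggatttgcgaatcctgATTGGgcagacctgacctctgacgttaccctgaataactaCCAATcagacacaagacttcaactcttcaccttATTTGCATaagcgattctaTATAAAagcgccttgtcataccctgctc
H2BC14: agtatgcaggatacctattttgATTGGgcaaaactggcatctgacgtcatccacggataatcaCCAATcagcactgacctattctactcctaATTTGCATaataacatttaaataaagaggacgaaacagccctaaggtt
H2BC21: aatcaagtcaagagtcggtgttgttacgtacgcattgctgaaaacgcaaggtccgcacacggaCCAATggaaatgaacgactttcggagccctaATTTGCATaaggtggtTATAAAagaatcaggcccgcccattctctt
H2BC4: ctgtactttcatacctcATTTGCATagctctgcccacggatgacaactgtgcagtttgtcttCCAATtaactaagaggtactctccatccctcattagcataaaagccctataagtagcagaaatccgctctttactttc
H1-2: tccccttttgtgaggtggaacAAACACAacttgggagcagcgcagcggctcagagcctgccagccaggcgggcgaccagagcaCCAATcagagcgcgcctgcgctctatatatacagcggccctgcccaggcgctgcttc

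The octamer thus stands in the stretch of H2BC11 and in those of 3 H2B genes with differences of the opposite sign. RefSeq promoters, each of 300 bases around the start, were matched for 52 of the 58 members. Searched on both strands, the octamer was in 13 of 16 H2B and 10 of 13 H2A promoters and in 0 of the H1, H3 and H4 promoters. That is 44.2% of the members' promoters, against 1.80% of all 27305 promoters. The CCAAT box was in 84.6% of the members' promoters (35.7% of all) and TATAAA in 65.4% (3264 of all 27305). The H1 box was in all 6 H1 promoters and 1 of H2A. An ETS core, searched as CCGGAAG, was in 4 members' promoters, those of H1-4, H4C9, H4C14 and H4C15, which is 7.69% against 10.7% of all promoters. The median difference was -0.03 both for the 23 members with the octamer and for the 29 without it. It was -0.11 for the 4 members with the ETS core, 2 of which share 1 reading, and -0.03 for the 48 without it. Windows of neighbouring genes overlap, so these promoters are not independent, and a match describes letters, not binding.

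ETS2 itself read 8.87, 8.70 and 8.78 after ETS2 siRNA and 9.79, 9.91 and 9.79 after control siRNA, and fell to 48.4% of its control level (adjusted p = 0.000254, limma). The epithelial markers EPCAM, KRT8, KRT18, KRT19 and CDH1, the lung factor NKX2-1 and SFTPB lay above the background floor, a log2 level of 6.67 set on 341 olfactory receptor genes; the club cell gene SCGB1A1 (6.45) did not. SFTPB, a surfactant protein gene, fell by 0.36 (adjusted p = 0.00770) and was the 1 called gene of the 8 measured epithelial markers. Of fibroblast and endothelial markers, 6 of 10 lay above the floor, COL1A1, LUM and KDR among them, and PDGFRB by its control mean alone. DCN (4.35), PECAM1 (5.76) and CDH5 (6.37) did not. Of leukocyte markers, 3 of 6 lay above the floor, CD68 (11.37), ITGAM (6.95) and CD14 (6.885), while PTPRC (4.73) and CD3E (5.75) did not. In the fibroblast and endothelial list and the leukocyte list 0 genes were called (limma; 3 of 16 had an unadjusted p under 0.05). Their median differences were -0.02 and 0.01, and their part in the histone readings was not tested.

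No clustered histone gene passed the test after ETS2 siRNA. With limma, 0 of 58 members were called higher or lower at an adjusted p under 0.05, against 4.91% of all genes. At an unadjusted p under 0.05 there were 13 members (22.4%), 1 with a positive and 12 with a negative difference, against 18.5% of all genes. Most differences were nevertheless below zero: 41 of 58 were negative (70.7%), 16 positive and 1 zero, where 47.2% of all genes were negative. The median difference was -0.04 over the members and 0.00 over all genes. All 3 ETS2 siRNA arrays lay below all 3 control arrays for 14 members (24.1%; 11.5% of all genes) and above them for 2 members (3.45%; 11.6% of all genes). H4C14 and H4C15 share 1 set of values. With it counted once, 40 of 57 distinct readings were negative and 12 had an unadjusted p under 0.05 (limma). All ETS2 siRNA arrays then lay below all control arrays in 13 readings (22.8%) and above them in 2. The clustered histone genes are expressed together in S phase, so the members are not independent of each other, and no p is given for their balance. In bulk RNA, fewer cells in S phase and less histone mRNA per cell cannot be told apart.

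**Figure D1:**
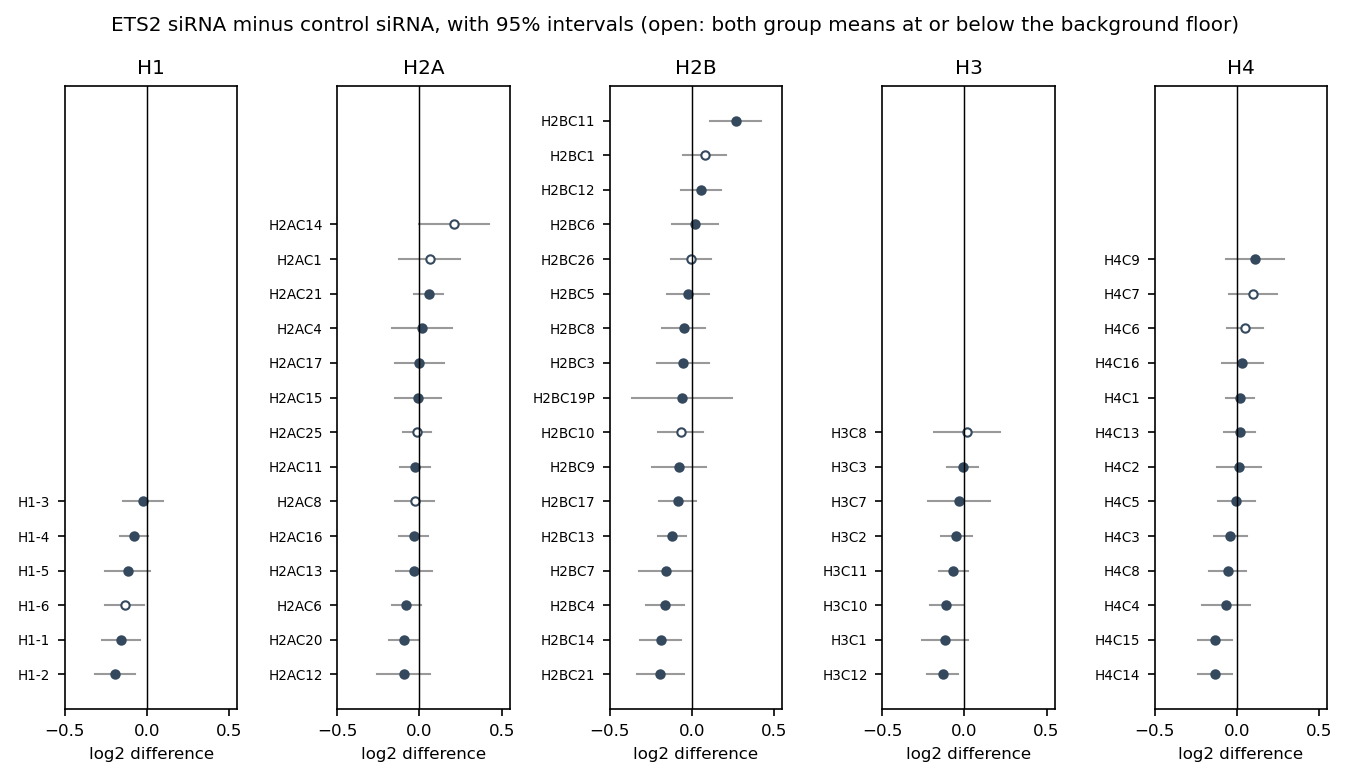
Log2 differences, ETS2 siRNA minus control siRNA, of the 58 clustered histone genes by class, with limma's 95% intervals. All 6 H1 genes lie left of zero, H2BC11 lies farthest to the right, and open points mark genes whose group means both lie at or below the background floor.

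The intervals show how precisely the probe readings were measured. Of the 47 members above the floor, all 47 intervals lay within a 1.5-fold difference in either direction (0.58 on the log2 scale), and 41 lay within 0.30 on the log2 scale. The lowest bound was -0.37, for H2BC19P, and the highest 0.42, for H2BC11. These bounds are for readings, and a reading at background or with signal from a near-identical copy does not bound the RNA of its gene. The standard error of a difference had a median of 0.0528 over the members and of 0.0498 over all genes. A gene counted as above the floor when the mean of either group was above it, so the filter is not fully independent of the sign. H2BC3, a negative member, passed by its control mean alone (6.64 after ETS2 siRNA, 6.70 after control siRNA). Of the members above the floor, 36 were negative, with a median of -0.06. The 11 members not above it had a median of 0.01, with 5 negative. Those 11 include the testis genes H1-6, H2AC1 and H2BC1.

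The count of called members depended on how the variance was modelled. When limma's prior variance was allowed to follow the level of a gene (an intensity trend), 9 of 58 members were called (15.5%), against 10.7% of all genes. Of these, H2BC11 was higher and H1-2, H1-4, H2BC4, H2BC14, H2BC21, H2AC20, H4C14 and H4C15 were lower. The probes of H4C14 and H4C15 held identical values on all arrays, so the 9 calls are 8 readings. The differences themselves were the same in both fits. Standard errors were smaller with the trend for 33 members, the 9 called ones among them, and larger for 25, and their median over the 58 members was 0.0586 with the trend and 0.0528 without it. For H1-2 the standard error was 0.0434 with the trend and 0.0525 without it, and for H2BC13 it was 0.0566 with the trend and 0.0367 without it.

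H1 was the class in which every member read lower after ETS2 siRNA, with differences from -0.20 to -0.03 and a median of -0.13. H1-2, one of the most widely expressed linker histones, read 10.08, 10.21 and 10.16 after ETS2 siRNA, against 10.27, 10.41 and 10.36 after control siRNA. Its groups did not overlap. The difference was -0.20 (SE 0.0525, 95% interval -0.32 to -0.08), or 87.3% of the control level, with an adjusted p of 0.0806. With 1 array left out its adjusted p lay between 0.0787 and 0.206.

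H1-4 gave the highest reading of any member, 13.68, 13.70 and 13.67 after ETS2 siRNA and 13.77, 13.79 and 13.73 after control siRNA. The groups did not overlap, and the difference was -0.08 (adjusted p = 0.311). Readings of different probes depend on the probes as well as on the RNA and are not ranked as amounts. H1-1 read 6.67, 6.80 and 6.64 after ETS2 siRNA, against 6.86, 6.89 and 6.83 after control siRNA, close to the floor. H1-6, a testis linker histone, lay below the floor in both groups (-0.14). H1-5 differed by -0.12 and H1-3 by -0.03, both with overlapping groups. With any single array left out, 5 or 6 of the 6 H1 genes remained negative.

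**Figure D2:**
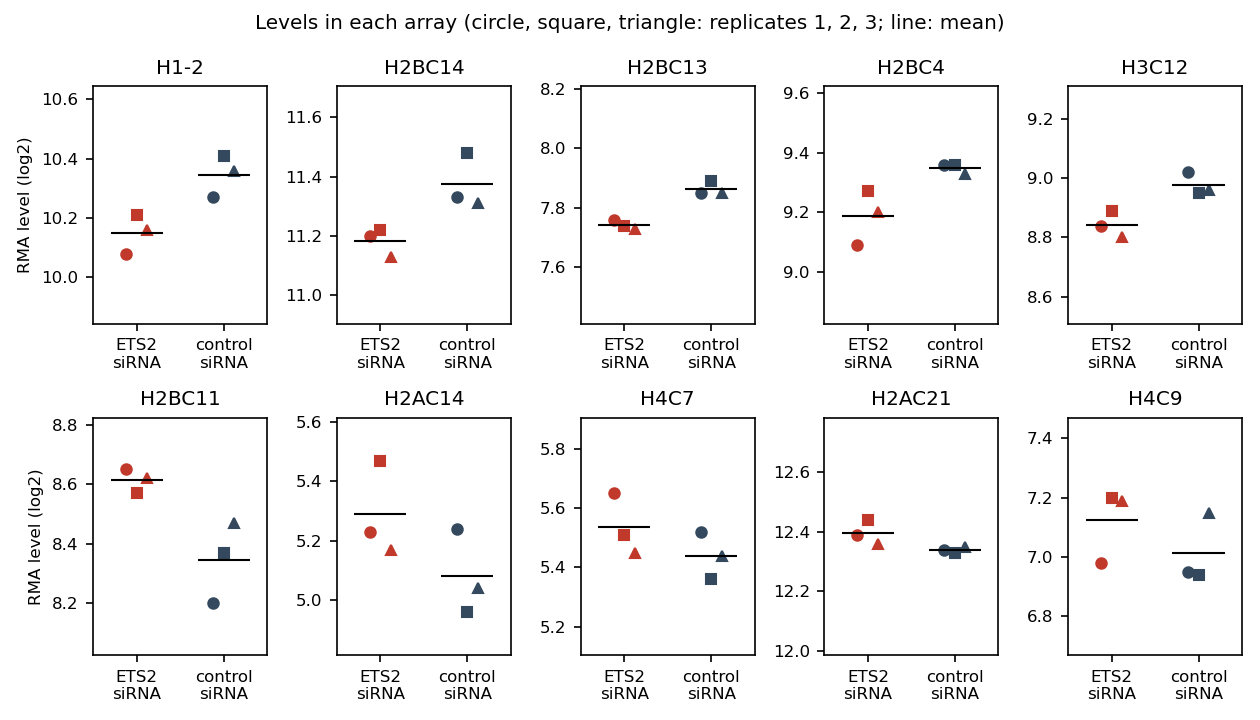
RMA levels (log2) of the 5 members with the smallest p among negative differences (upper row) and among positive ones (lower row), with ETS2 siRNA arrays left and control arrays right in each panel; every panel spans 0.8 log2 units. In the upper row the groups do not overlap, and in the lower row they separate for H2BC11 and H2AC21.

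H2B, which pairs with H2A in the nucleosome, held the largest positive difference and 3 of the 4 largest negative ones. H2BC11 read 8.65, 8.57 and 8.62 after ETS2 siRNA, against 8.20, 8.37 and 8.47 after control siRNA. All ETS2 siRNA arrays were above all control arrays, with an SD of 0.04 after ETS2 siRNA and 0.14 after control siRNA. The difference was 0.27 (SE 0.0674, 95% interval 0.11 to 0.42), or 120% of the control level, with an adjusted p of 0.0686. With 1 array left out it ranged from 0.19 to 0.33 and its adjusted p from 0.0506 to 0.199.

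H2BC14 read 11.20, 11.22 and 11.13 after ETS2 siRNA, against 11.33, 11.48 and 11.31 after control siRNA, without overlap. Its difference was -0.19 (SE 0.0548, adjusted p = 0.0996). H2BC21, which also gives a polyadenylated transcript, read 9.08, 9.29 and 9.16 after ETS2 siRNA, against 9.41, 9.41 and 9.29 after control siRNA. There the groups touched at 9.29, and the difference was -0.19 (adjusted p = 0.134).

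H2BC4 read 9.09, 9.27 and 9.20 after ETS2 siRNA, against 9.36, 9.36 and 9.33 after control siRNA, a difference of -0.16 (adjusted p = 0.126). H2BC13 read 7.76, 7.74 and 7.73 after ETS2 siRNA, against 7.85, 7.89 and 7.85 after control siRNA, a difference of -0.12 (adjusted p = 0.117). In both genes every ETS2 siRNA array was below every control array. Among the 17 H2B genes 13 were negative and 4 positive, with a median of -0.06. H2BC12, another widely expressed H2B gene, read 12.02, 12.04 and 12.16 after ETS2 siRNA and 12.07, 11.95 and 12.03 after control siRNA, with overlap. The other positive members were H2BC6 (0.02) and the testis gene H2BC1 (0.08, below the floor). The pseudogene H2BC19P had the widest interval, from -0.37 to 0.24.

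H2A differences centred near zero, with a median of -0.02 over 14 genes, 9 negative, 4 positive and H2AC17 at 0.00. H2AC14 had the largest, 0.21 (adjusted p = 0.284), with 5.23, 5.47 and 5.17 after ETS2 siRNA and 5.24, 4.96 and 5.04 after control siRNA. Both groups of H2AC14 lay below the floor and they overlapped. H2AC21 read 12.39, 12.44 and 12.36 after ETS2 siRNA, against 12.34, 12.33 and 12.35 after control siRNA. Its groups did not overlap, yet the difference was 0.06 (adjusted p = 0.523). H2AC20 differed by -0.10 (adjusted p = 0.225) and H2AC6 by -0.08 (adjusted p = 0.333), both without overlap. The other 10 members had overlapping groups, with differences from -0.10 for H2AC12 to 0.06 for H2AC1.

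H3 genes, which encode the replication-coupled H3, were negative in 7 of 8 cases, with a median of -0.06. H3C12 read 8.84, 8.89 and 8.80 after ETS2 siRNA, against 9.02, 8.95 and 8.96 after control siRNA. The groups did not overlap, with a difference of -0.13 (adjusted p = 0.130). H3C10 differed by -0.11 (adjusted p = 0.214) and H3C11 by -0.07 (adjusted p = 0.443), also without overlap. H3C11, the brightest H3 reading, gave 13.00, 13.08 and 13.07 after ETS2 siRNA and 13.13, 13.11 and 13.11 after control siRNA. H3C8 (0.01) was the positive member and lay below the floor.

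H4 was split, with 6 of 13 genes negative, 7 positive and a median of 0.01. H4C14 and H4C15, which share 1 set of values, read 11.68, 11.68 and 11.73 after ETS2 siRNA, against 11.76, 11.86 and 11.87 after control siRNA. These were the 2 H4 genes without overlap, at -0.13 (adjusted p = 0.146). Another probe, which carries both symbols, read 10.14, 10.15 and 10.19 after ETS2 siRNA, against 10.09, 10.27 and 10.24 after control siRNA. The groups of that probe overlapped, with a difference of -0.04. H4C9 read 6.98, 7.20 and 7.19 after ETS2 siRNA, against 6.95, 6.94 and 7.15 after control siRNA, a difference of 0.11 (adjusted p = 0.537). H4C7 lay below the floor (0.10, adjusted p = 0.502), with 5.65, 5.51 and 5.45 after ETS2 siRNA and 5.52, 5.36 and 5.44 after control siRNA. The bright readings of H4C3 and H4C13 overlapped between groups. H4C3 gave 13.02, 13.13 and 13.11 after ETS2 siRNA and 13.14, 13.10 and 13.14 after control siRNA. H4C13 gave 12.55, 12.62 and 12.64 after ETS2 siRNA and 12.61, 12.56 and 12.59 after control siRNA.

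The tilt towards lower readings was uneven across arrays. Each gene was set against its own control mean, and the median over the 58 members was -0.10, -0.01 and -0.04 in ETS2 siRNA replicates 1, 2 and 3, against -0.01, 0.02 and 0.00 in control replicates 1, 2 and 3. ETS2 siRNA replicate 2 therefore lay level with control replicate 1. ETS2 siRNA replicate 1 held the lowest of the 6 values for 28 of 58 members, ties included. Control replicate 2 held the highest for 20, without its ties with ETS2 siRNA arrays or control replicate 1. Without ETS2 siRNA replicate 1, the median difference was -0.02, with 36 of 58 members negative. Without ETS2 siRNA replicate 2 it was -0.06, with 44 negative. The same medians over all genes lay between -0.01 and 0.01 in every array.

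**Figure D3:**
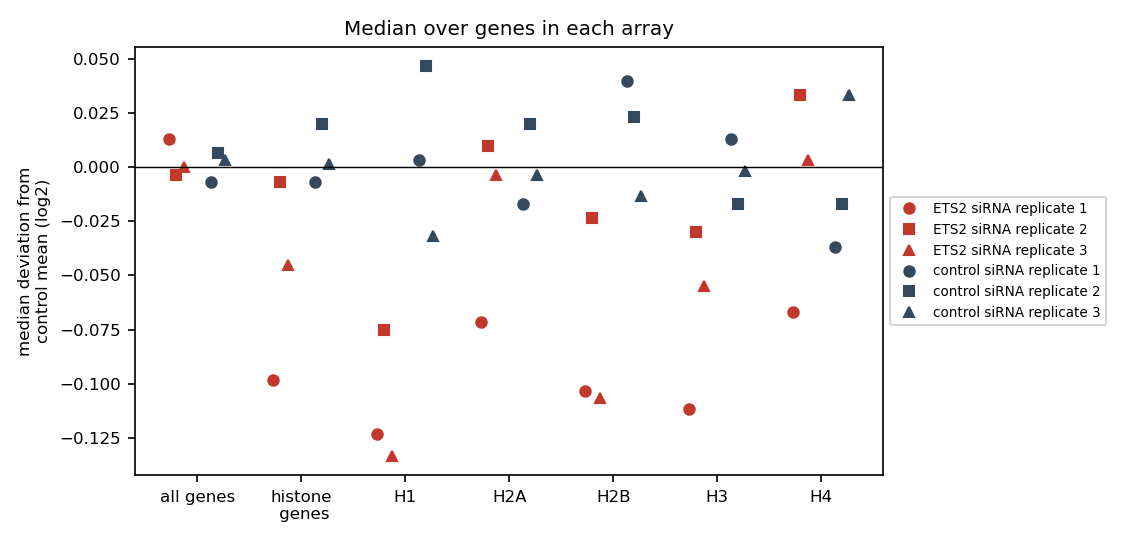
Median deviation from the control mean (log2) in each array, over all genes, over the 58 clustered histone genes and over each class, with ETS2 siRNA arrays (red) left of control arrays (dark). ETS2 siRNA replicate 1 is the lowest array for the histone genes as a whole, at -0.10. In H1, H2B and H3 every ETS2 siRNA array lies below every control array, and in H2A and H4 the groups overlap.

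By position, RefSeq places the members in 3 groups on chromosome 6, 2 on chromosome 1 and, for H4C16, on chromosome 12. The largest group, 31 genes from H2AC1 to H4C8, had a median of -0.04, with 22 negative. The 13 genes from H2BC13 to H2BC17 had a median of -0.07, with 10 negative. The 5 genes between these groups were H2BC11 (0.27), H2AC11 (-0.03), H2BC12 (0.06), H4C9 (0.11) and H2AC12 (-0.10), with a median of 0.06. The 6 chromosome 1 genes from H4C14 to H2AC21 had a median of -0.12, with 5 negative, and H2AC25 and H2BC26 read -0.01 each, below the floor. The 5 members whose RefSeq gene model exceeds 1000 bases (H2BC4, H2BC5, H2BC12, H2BC21 and H4C15) had a median difference of -0.13, against -0.03 for the 53 shorter ones. That first median is the value of H4C15, whose reading also stands among the shorter genes as H4C14. None of these contrasts between groups of members was tested.

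In 9 cases an H2B and an H2A member were next to each other in RefSeq with under 1000 bases between them. The 2 neighbours had differences of the same sign in 6 pairs and of opposite sign in 2, and in the last pair H2BC17 read -0.09 beside H2AC17 at 0.00. H2BC11 and H2AC11 start 247 bases apart on opposite strands, so the H2BC11 stretch printed above is also upstream of H2AC11. H2AC11 read 9.66, 9.71 and 9.74 after ETS2 siRNA, against 9.74, 9.75 and 9.70 after control siRNA, with overlap. H2BC11 minus H2AC11 within each array was -1.01, -1.14 and -1.12 after ETS2 siRNA, against -1.54, -1.38 and -1.23 after control siRNA. These values did not overlap, with a mean shift of 0.29. The pair was singled out for the difference of H2BC11, so the shift is a description. The other pair of opposite sign was H2BC14 (-0.19) with H2AC14 (0.21), of which H2AC14 lay below the floor. H2BC14 minus H2AC14 was 5.97, 5.75 and 5.96 after ETS2 siRNA, against 6.09, 6.52 and 6.27 after control siRNA, also without overlap, with a mean shift of -0.40.

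**Figure D4:**
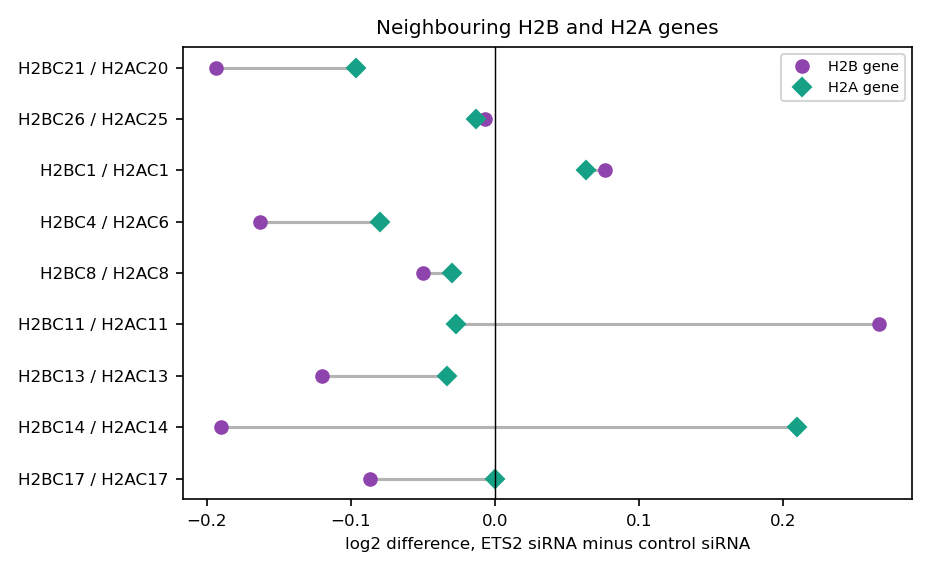
Log2 differences, ETS2 siRNA minus control siRNA, of 9 neighbouring H2B genes (circles) and H2A genes (diamonds), 1 pair per row. The H2BC11 and H2BC14 pairs straddle zero, from -0.03 to 0.27 and from -0.19 to 0.21.

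Near-identical copies of these genes are hard for an array to tell apart. Another 20 probes carried several symbols with at least 1 of these genes among them, and they held 17 distinct readings. Of these 0 were called when all probes were tested with limma, with 2 at an unadjusted p under 0.05, against 1.2% and 13.7% of all 33297 probes. Their differences ran from -0.18 to 0.10, and 14 of 17 were negative. Several of the 17 carry the same genes, such as H2BC18 or H3C13, H3C14 and H3C15, so they are not independent readings. In 6 of the 17 readings all ETS2 siRNA arrays were below all control arrays (10.2% of all probes). In 2 they were above (8.51% of all probes), both shared by the H4 genes H4C11 and H4C12. One of these read 10.63, 10.68 and 10.65 after ETS2 siRNA, against 10.60, 10.52 and 10.58 after control siRNA. The members' own values may likewise hold signal from copies, and to what extent was not tested.

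Genes that act on histone genes and their products were read beside the members. Over all 18417 genes, 420 were called higher and 484 lower, which is 4.91% called. Of 10 measured genes of histone gene transcription, 2 rose and 0 fell, with a median of 0.00. CDK2, the kinase that phosphorylates NPAT with cyclin E, read 10.54, 10.63 and 10.59 after ETS2 siRNA, against 10.31, 10.36 and 10.26 after control siRNA, and rose by 0.28 (adjusted p = 0.0134). CCNE2, a cyclin E gene, rose by 0.19 (adjusted p = 0.0304). NPAT itself read 10.25, 10.28 and 10.26 after ETS2 siRNA, against 10.16, 10.34 and 10.25 after control siRNA (0.01).

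Of 19 measured genes of histone mRNA 3' end processing, 0 were called and 0 had an unadjusted p under 0.05 (limma), with a median of 0.03. SLBP, the stem-loop binding protein, read 11.26, 11.23 and 11.21 after ETS2 siRNA and 11.19, 11.22 and 11.25 after control siRNA. CPSF2, a partner of the endonuclease CPSF3, had the smallest p of the list (0.09, adjusted p = 0.283), followed by SNRPB (-0.09, adjusted p = 0.304). Of 10 genes of histone mRNA turnover, XRN1, a 5' to 3' exonuclease, fell by 0.23 (adjusted p = 0.0302). The decapping enzyme gene DCP2 had the next smallest p (-0.13, adjusted p = 0.0911), with groups that did not overlap. The helicase UPF1 (0.11) and the exonuclease ERI1 (0.16), both of which act on histone mRNA when replication stops, were not called (adjusted p = 0.151 and 0.165).

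Histone chaperones, which carry and deposit histones, gave 1 rise and 1 fall among 24 genes, with a median of 0.04. ASF1B, which hands new H3 and H4 to CAF-1, read 10.85, 10.80 and 10.76 after ETS2 siRNA, against 11.02, 11.01 and 10.98 after control siRNA, and fell by 0.20 (adjusted p = 0.0309). NAP1L1, a carrier of H2A and H2B, rose by 0.22 (adjusted p = 0.0478). Among 9 measured histone genes that are expressed outside replication, H1-10, a linker histone gene outside the clusters, fell by 0.29 (adjusted p = 0.0337). It read 8.95, 9.03 and 8.97 after ETS2 siRNA, against 9.18, 9.40 and 9.24 after control siRNA. The variants H2AX (0.04), H2AZ1 (0.04), H2AZ2 (-0.10), H2AJ (0.02), MACROH2A1 (0.03), MACROH2A2 (-0.06), H3-3B (0.04) and H3-5 (0.02) were not called.

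Markers of cell cycle phases were read as well. Of 30 S phase genes, 4 rose (CDC6, CLSPN, DTL and UHRF1, by 0.21 to 0.31) and RRM1 fell by 0.21, with a median of 0.10. Differences were positive for 27 of the 30. All ETS2 siRNA arrays lay above all control arrays for 56.7% of the list (11.6% of all genes) and below them for 6.67%. Of 24 G2/M genes, 0 rose and 4 fell (KIF20A, HMMR, BUB1B and AURKA, by 0.21 to 0.42), with a median of -0.04. There 62.5% were negative, and 33.3% had all ETS2 siRNA arrays below all control arrays (11.5% of all genes). A further 16.7% had them all above (11.6% of all genes). In both the S phase and the G2/M list 16.7% of genes were called, against 4.91% of all genes. The clustered histone genes, at -0.04, thus did not share the sign of the S phase median. The part of cell cycle stage in the histone readings was not tested. Across the lists 15 distinct genes were called, and leaving out 1 array ended most of these calls. KIF20A and HMMR stayed called without any single array, while 6 of the 15 (ASF1B, CDC6, CLSPN, NAP1L1, RRM1 and UHRF1) were called in none of the 6 fits with an array left out. The highest adjusted p in those fits was 0.0692 for CDK2, 0.130 for CCNE2, 0.129 for XRN1, 0.130 for ASF1B, 0.133 for H1-10 and 0.178 for NAP1L1.

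**Figure D5:**
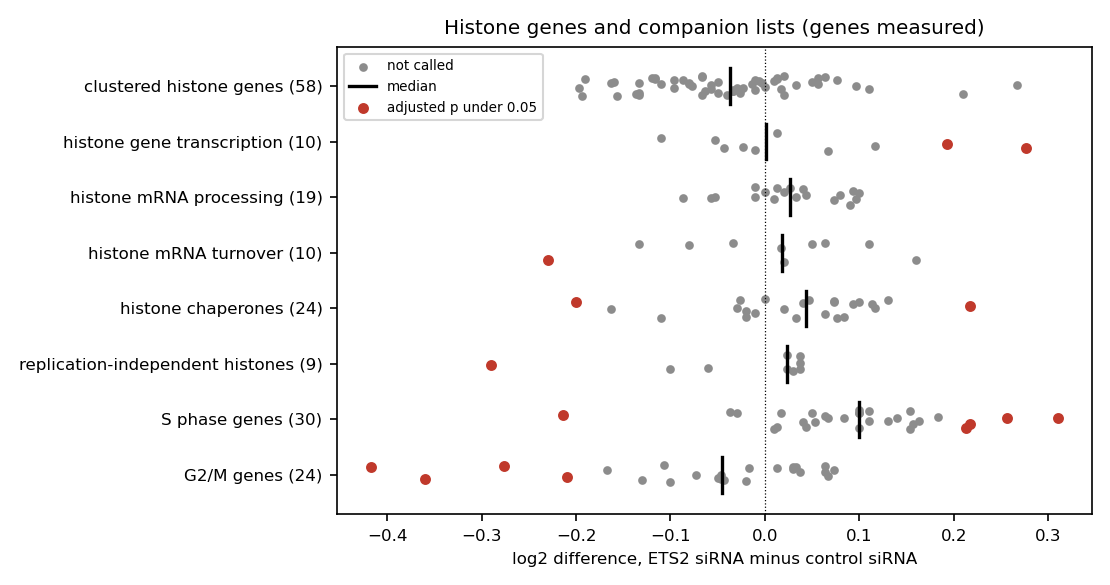
Log2 differences, ETS2 siRNA minus control siRNA, of the clustered histone genes and of 7 companion lists, with the median of each as a bar and genes at an adjusted p under 0.05 in red. No clustered histone gene is red; the S phase median lies at 0.10 and the G2/M median at -0.04.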

How the data were processed

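The authors deposited log2 expression values, 1 column per array, rounded to 2 decimals; RMA is named in the submitters' processing notes without a version or build. Its quantile step hides any change common to the whole transcriptome. The value table held 33297 probes, of which 19460 had 1 gene symbol in the platform annotation (1754 had several and 12083 were unnamed here). The brightest probe per gene left 18417 genes. Differences were fitted with limma 3.58.1 in R 4.3.3 (lmFit and eBayes, no intensity trend, two-sided, Benjamini-Hochberg over all genes, called at an adjusted p under 0.05), and the procedure was tested on simulated data. Dim genes were kept. Levels are per array, errors of differences are limma's standard errors with 95% intervals, and precision is set by 3 arrays per group. The genes named are H2BC11, H1-2, the 5 members with the smallest p in each direction, the 5 brightest, and called members of the companion lists or else the 2 with the smallest p. Others, such as H2BC21 and the promoter stretches, were chosen after their values were seen. The members, lists and alternatives were chosen with earlier results of these data known. Promoters and gene order come from RefSeq (GRCh38.p14).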

Additional observations from a re-analysis of the deposited data

How the results depend on the processing

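The median difference of the members kept its sign under all alternatives run, and with 1 array left out it lay between -0.06 and -0.02. The count of called members, 0 in the analysis as reported, was also 0 with the replicate number as a block, with ribosomal protein genes as the scale, with median-centred arrays, with a gene's probes averaged, with robust variances, with array weights and with any array left out. It was 1 when arrays were quantile-normalized again (H1-2, adjusted p = 0.0423), 2 when only genes above the floor were tested (H1-2 and H2BC11) and 9 with an intensity trend. As shares these were 1.72%, 4.26% and 15.5% of the members tested, against 6.01%, 10.7% and 10.7% of all genes in the same fits. The floor leaves fewer genes to adjust over, the 9 genes called with the trend had smaller standard errors there, and beyond that the cause was not tested. Of the 14 members named by rule, H4C13 reversed, to -0.0017 without ETS2 siRNA replicate 3 (up to 0.0433 without another array). ETS2 was called in every fit. The companion lists had 15 genes called, 8 in the replicate block fit and 2 to 10 with 1 array left out. Labels give both groups the numbers 1 to 3. Deviations of same-numbered arrays correlated at 0.177, 0.181 and 0.0352, and those of differently numbered arrays at -0.198 to 0.0659. These values do not decide whether the numbers pair the arrays. The main fit took the arrays as unpaired, and the block gave 604 called genes over all, against 904 without it. The count over all genes was 1107 after quantile normalization, 1397 above the floor, 1963 with the trend, 1480 with array weights and 213 to 735 with 1 array left out. Small differences of dim members, near the floor, are limited by signal over background.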

Other observations

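Germ-cell histone genes outside the clusters, of testis or oocyte, gave 5 single-symbol readings. Of these, 0 were called by limma and 1 had an unadjusted p under 0.05 (H2AP, -0.23, adjusted p = 0.156, below the floor). H1-7 and H2BW2 differed by 0.06 and 0.02. H3-4, a testis H3 gene that lies near H2AC25 and H2BC26 on chromosome 1 but has a symbol outside the rule, differed by 0.03 (adjusted p = 0.917).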
